A study of Mus musculus with 8 samples.

Results

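The genes described here are 10 genes of the hypoxia response, namely Hif1a, Epas1, Egln1, Egln3, Ankrd37, Vegfa, Adm, Slc2a1, Pdk1 and Ndrg1. They are listed by name with no threshold on their values, but, like all lists below, were chosen with earlier results of these data known. Each matched 1 of the 52636 gene identifiers in the count table, and all 10 were among the 17378 genes that passed the low-count filter and were tested. RNAseq was performed on S0 cells, the fraction of fetal liver cells that lack lineage markers, CD71 and Ter119 on their surface, sorted from C57BL/6J embryos at E12.5. The 8 libraries comprised 4 from wild-type (WT) embryos and 4 from embryos lacking both Vps13a and Vps13c (DKO), and the labels name no treatment for either group. VPS13A and VPS13C are lipid transfer proteins that act at contacts between organelles. Both knockouts are constitutive, so that every tissue of a DKO embryo carries them. The Vps13a allele was made with FLP and β-actin-Cre transgenic mice and lacks an exon. The paper obtained DKO embryos by crossing mice heterozygous for the Vps13a knockout and homozygous for that of Vps13c, which cannot yield WT embryos. Litter and genotype thus cannot be told apart here, and no library came from a single knockout. Each library is labelled as a replicate of its genotype, and whether each came from a separate embryo is not stated, so the p-values measure the spread between these libraries.

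Cells sense oxygen through hypoxia-inducible factors (HIFs), dimers of an oxygen-regulated α subunit (HIF1A, or HIF2A encoded by Epas1) and the stable subunit ARNT. When oxygen is sufficient, the prolyl hydroxylases EGLN1, EGLN2 and EGLN3 mark the α subunit for capture by VHL and degradation. When oxygen is low, the α subunit accumulates and the dimer binds a short DNA element to induce genes for glucose uptake, glycolysis, blood vessel growth and iron handling, as well as Egln1 and Egln3 themselves. The main control therefore acts on the protein, which RNAseq does not measure. In red cell formation the pathway is best known for the induction of erythropoietin.

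The deposited values were whole-number read counts per gene, and the totals ranged from 42114489 to 50886469 in WT and from 36981439 to 42587815 in DKO. Values below are normalized counts, that is, counts scaled by the TMM method to a common library size. Vps13a ranged from 1825 to 2109 in WT and from 607 to 1039 in DKO, and Vps13c from 503.7 to 663.7 in WT and from 518 to 1088 in DKO, and the first was lower in the DKO libraries (log2 fold change -1.29, edgeR adjusted p = 0.00247) while the second did not pass the test (0.49, 0.182). A count over a whole gene does not measure a deletion of part of it. The erythroid markers Gata1 and Klf1 were present in every library, at 6649 to 10502 and 9622 to 17171 normalized counts. Xist, which is transcribed from the inactive X chromosome, was at 0 to 30.1 in the WT libraries and at 62.3 in DKO replicate 3, and at 18029 to 27043 in the other DKO libraries. The Y-linked gene Ddx3y was at 2911 to 3354 in WT, at 2516 in DKO replicate 3, and at or below 41.0 in the other DKO libraries. The genotypes thus differed in sex-linked transcripts as well. A fit with the Xist class of each library (high or low) as a term beside genotype, added after the data were seen, is given with the results, and in it the genotype difference rests on DKO replicate 3 against the 4 WT libraries.

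In DKO S0 cells, 3 of the 10 hypoxia response genes rose (Ankrd37, Vegfa and Egln1), 1 fell (Hif1a), and 6 did not pass the test (Adm, Egln3, Slc2a1, Pdk1, Ndrg1 and Epas1). The test was edgeR's quasi-likelihood test, and a call was an adjusted p under 0.05 over all genes tested. Of all genes tested, 10.7% were called higher and 10.8% lower in DKO, or 21.6% in either direction, beside 4 of the 10 members. The 3 members that rose did so by more than 1 on the log2 scale, as did 6.19% of all genes, and no member fell by more than 1, as did 2.43% of all genes. WT and DKO values did not overlap for 4 members. Every DKO library lay above every WT library for Vegfa, Adm and Ankrd37, as it did for 13.5% of all genes, and every DKO library lay below every WT library for Hif1a, as for 14.6% of all genes. The median log2 fold change of the 10 members was 0.30, and that of all genes tested was 0.03. With upper-quartile scaling, which moved the median over all genes by 0.11 on the log2 scale, calls over all genes changed from 1867 higher and 1878 lower to 2492 higher and 1242 lower, and the call of Hif1a was lost. With the Xist class as a term, none of the 4 calls remained in edgeR, while 476 genes were higher and 618 lower among all genes, or 2.74% and 3.56%. At an unadjusted p under 0.05, Vegfa was then higher and Hif1a and Ndrg1 were lower.

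**Figure D1:**
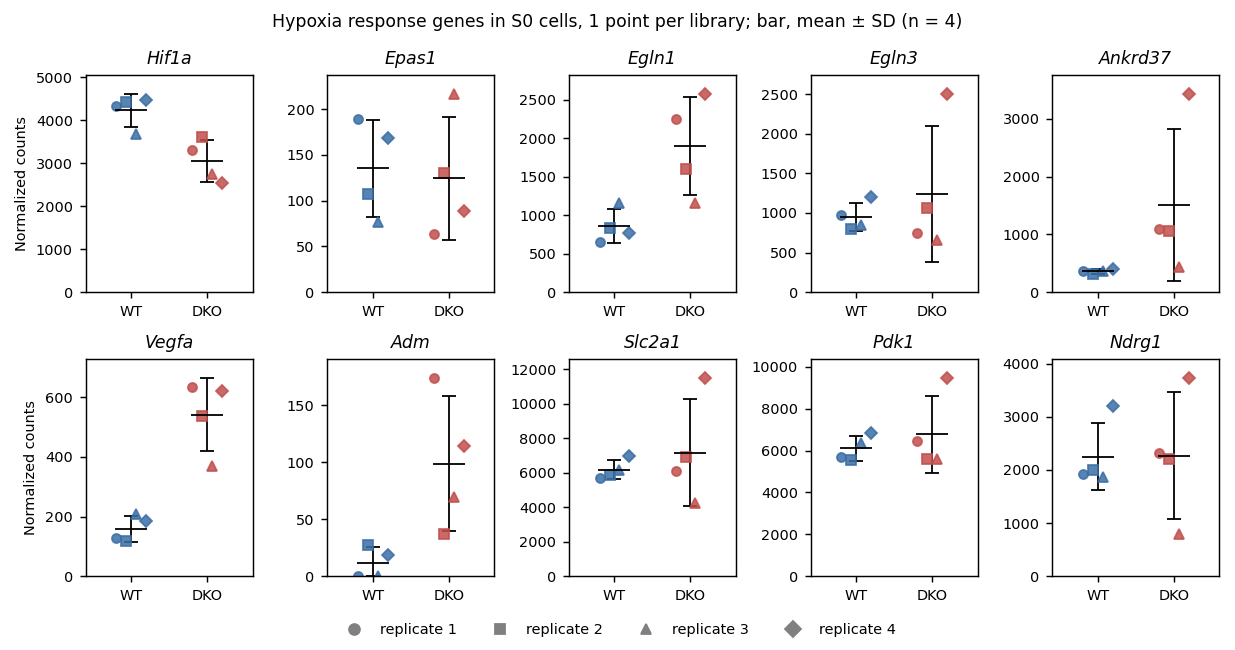
Normalized counts (vertical axes, 1 panel per gene, each starting at 0) of the 10 hypoxia response genes in the 4 WT and 4 DKO libraries, 1 point per library with its replicate number as the marker shape; the long bar is the mean and the whiskers the SD (n = 4), with the lower whisker stopped at 0 for Adm in WT. The DKO points of Vegfa, Adm and Ankrd37 all lie above the WT points and those of Hif1a all lie below, while in Ankrd37, Egln1, Egln3, Slc2a1, Pdk1 and Ndrg1 DKO replicate 4 is the highest of the 8 libraries.

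**Figure D2:**
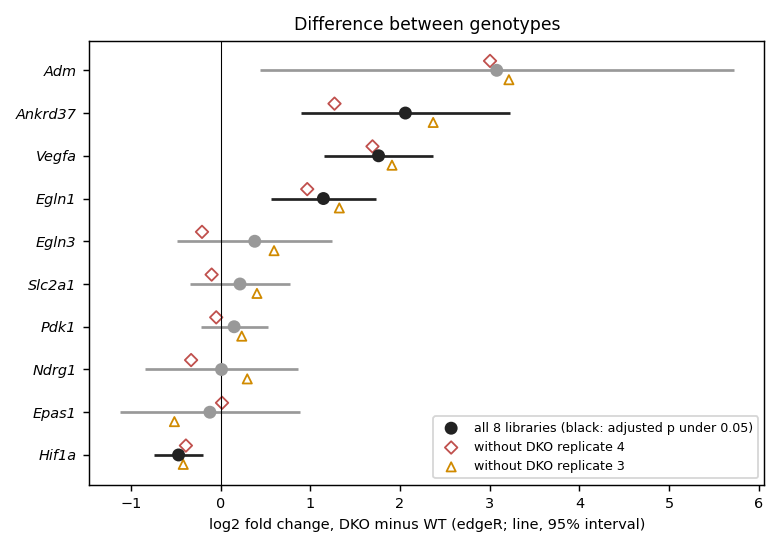
Log2 fold change between genotypes (horizontal axis, DKO minus WT) for the 10 genes from edgeR, with lines for the 95% interval and black symbols for an adjusted p under 0.05; open diamonds and triangles give the estimate without DKO replicate 4 and without DKO replicate 3. The intervals of Adm, Ankrd37, Vegfa and Egln1 lie above 0 and that of Hif1a below 0, and without DKO replicate 4 the estimates of Egln3, Slc2a1, Pdk1 and Ndrg1 lie below 0.

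The promoters of the members are shown because HIF dimers bind a short core sequence, and the genes that rose can be set beside genes that did not pass the test. RefSeq windows on GRCm38.p6, from 250 bases before to 50 bases after a start site, were searched on both strands for ACGTG and GCGTG, where overlapping matches were each counted. Of 32851 windows in the table, 19.6% held ACGTG, 32.4% held GCGTG and 43.8% held at least 1 of them. The table held 10 windows for 8 of the members. Of these 10 windows, 8 held a match, while a window each of Vegfa and Pdk1 held none. All 8 of these genes had a match in at least 1 window, and Epas1 and Ndrg1 had no window. Ankrd37 and Egln1, which rose, are printed above Slc2a1 and Pdk1, which did not pass the test. Each is written 5′ to 3′ on the strand of its gene, and capitals mark the matches, which read CACGT or CACGC where the motif lies on the opposite strand.
Ankrd37, chr8:45999801-46000100, minus strand: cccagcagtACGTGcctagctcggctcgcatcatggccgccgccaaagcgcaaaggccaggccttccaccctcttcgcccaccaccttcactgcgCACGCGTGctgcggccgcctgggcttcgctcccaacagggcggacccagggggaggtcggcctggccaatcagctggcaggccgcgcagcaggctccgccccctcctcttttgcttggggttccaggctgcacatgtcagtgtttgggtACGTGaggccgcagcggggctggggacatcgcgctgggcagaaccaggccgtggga
Egln1, chr8:124949205-124949504, minus strand: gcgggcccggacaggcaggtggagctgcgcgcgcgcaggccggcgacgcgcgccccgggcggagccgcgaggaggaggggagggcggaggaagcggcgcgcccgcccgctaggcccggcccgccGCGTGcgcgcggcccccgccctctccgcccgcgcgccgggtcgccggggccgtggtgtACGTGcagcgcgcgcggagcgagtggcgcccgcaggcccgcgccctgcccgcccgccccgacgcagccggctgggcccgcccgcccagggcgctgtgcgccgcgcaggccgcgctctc
Slc2a1, chr4:119108495-119108794, plus strand: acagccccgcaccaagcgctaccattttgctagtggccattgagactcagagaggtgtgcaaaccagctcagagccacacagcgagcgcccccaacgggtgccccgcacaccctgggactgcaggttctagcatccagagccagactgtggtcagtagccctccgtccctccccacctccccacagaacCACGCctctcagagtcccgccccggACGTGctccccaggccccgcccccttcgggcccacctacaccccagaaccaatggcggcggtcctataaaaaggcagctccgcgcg
Pdk1, chr2:71872974-71873273, plus strand: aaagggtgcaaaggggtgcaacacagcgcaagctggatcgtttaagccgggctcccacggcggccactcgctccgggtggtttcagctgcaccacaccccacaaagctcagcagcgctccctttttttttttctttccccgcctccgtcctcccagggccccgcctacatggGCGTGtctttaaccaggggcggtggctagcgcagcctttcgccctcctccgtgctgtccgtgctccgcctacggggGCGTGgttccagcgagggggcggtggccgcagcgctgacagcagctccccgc
The Ankrd37 window held 4 matches, and the printed windows of Egln1, Slc2a1 and Pdk1 held 2 each. As all 8 members with a window held a match, its presence could not separate genes that rose from those that did not pass the test. Of the other members, Hif1a had 3 matches, Adm 2 and Egln3 1, while Vegfa had none in the window of its first listed start site and 2 in that of another. A match is a description of the sequence and not evidence of binding.

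Hif1a encodes the α subunit that most cell types use for the acute response. Its gene lies on chromosome 12 from 73901375 to 73947530 on the plus strand of GRCm38. It was counted at 4335, 4429, 3671 and 4479 in WT replicates 1 to 4 and at 3303, 3607, 2752 and 2551 in DKO replicates 1 to 4. The highest DKO library was thus below the lowest WT library, although the WT library nearest to it, replicate 3, stood apart from its group. The mean fell from 4229 ± 376 to 3053 ± 487 (SD, n = 4), a log2 fold change of -0.47 (SE 0.12, 95% interval -0.75 to -0.19, edgeR adjusted p = 0.0254). Permuting the library labels (exact, two-sided, on log2 CPM) gave p = 0.0286, which is the smallest that the 70 arrangements of 4 against 4 libraries allow. The call was close to the threshold. Without WT replicates 1, 2 or 4 the edgeR adjusted p was 0.0769, 0.0776 and 0.0780, and without DKO replicates 3 or 4 it was 0.0539 and 0.0592, with log2 fold changes between -0.56 and -0.39 over the 8 omissions. Gm15283, an antisense gene that overlaps Hif1a, was at 44.6 ± 12.9 in WT and 185 ± 112 in DKO (SD, n = 4). The sources used here do not say whether reads were counted by strand, so those of the pair may not be fully separated.

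Epas1 encodes the α subunit HIF2A, which is known for the control of erythropoietin and iron genes. Epas1 (chromosome 17, 86753700 to 86833410, plus strand) was at 189.5, 107, 76.4 and 169 in the WT replicates and at 63.0, 130.2, 216 and 88.8 in the DKO replicates. The groups overlapped over nearly their whole range, and both the highest and the lowest value came from DKO. The log2 fold change was -0.12 with a 95% interval from -1.12 to 0.88 (edgeR adjusted p = 0.876), so that changes of up to about 1 on the log2 scale in either direction were not detectable here. Scaled per kilobase of exon, the level of Hif1a was 29.5 times that of Epas1 in the WT mean and 23.7 times in the DKO mean.

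Of the prolyl hydroxylases among the members, which target the α subunits for degradation and are themselves HIF-induced, Egln1 rose and Egln3 did not pass the test. Egln1 encodes the main oxygen sensor of this family. Egln1 (chromosome 8, 124908587 to 124949324, minus strand) was at 650, 840, 1164 and 771 in the WT replicates and at 2247, 1601, 1156 and 2571 in the DKO replicates. DKO replicates 1, 2 and 4 were above every WT library, while DKO replicate 3 fell just short of WT replicate 3. The mean rose from 856 ± 220 to 1894 ± 636 (SD, n = 4), a 2.21-fold difference and a log2 fold change of 1.14 (SE 0.26, 95% interval 0.56 to 1.73, edgeR adjusted p = 0.0155). The exact permutation p was 0.0571. Without WT replicate 1 or 4 the edgeR adjusted p was 0.0562 and 0.0564, at log2 fold changes of 1.03 and 1.09.

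Egln3 is the hydroxylase whose mRNA is often the more strongly induced by low oxygen in cultured cells. Egln3 (chromosome 12, 54178981 to 54203860, minus strand) was at 972, 803, 843 and 1198 in the WT replicates and at 749, 1059, 656 and 2497 in the DKO replicates. Only DKO replicate 4 was above the WT range, and DKO replicates 1 and 3 were below it. Its log2 fold change of 0.38 (95% interval -0.49 to 1.25, edgeR adjusted p = 0.523) became -0.21 without DKO replicate 4. The difference between the responses of Egln1 and Egln3 was not tested.

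Ankrd37 encodes a small ankyrin repeat protein and is a well-known direct HIF1 target. Ankrd37 (chromosome 8, 45996902 to 46005707, minus strand) was at 364, 308, 375 and 399.5 in the WT replicates and at 1101, 1068, 433 and 3427 in the DKO replicates. The WT libraries were close together. The DKO libraries spread over 7.91-fold, with replicate 3 just above the WT range and replicate 4 far above the rest. The mean rose from 362 ± 38.7 to 1507 ± 1316 (SD, n = 4), a 4.17-fold difference and a log2 fold change of 2.06 (SE 0.52, 95% interval 0.89 to 3.22, edgeR adjusted p = 0.0224, exact permutation p = 0.0286). It was 1.27 without DKO replicate 4 (edgeR adjusted p = 0.0290). Without WT replicate 1, 2, 3 or 4 it was 2.06, 1.99, 2.07 and 2.10, but the edgeR adjusted p was 0.0677, 0.0673, 0.0531 and 0.0633. The neighbouring gene Ufsp2, which overlaps Ankrd37 on the opposite strand, was at 3468 ± 144 in WT and 3505 ± 409 in DKO. The reads of Ankrd37 and Ufsp2, too, may not be fully separated.

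The secreted members act on vessels. Vegfa encodes the main growth factor of endothelial cells. Vegfa (chromosome 17, 46016993 to 46032369, minus strand) was at 129, 117, 208 and 184 in the WT replicates and at 636, 537, 369 and 621 in the DKO replicates. The groups were well apart, and the lowest DKO library, replicate 3, was above the highest WT library. The mean rose from 159 ± 43.7 to 541 ± 122 (SD, n = 4), a 3.39-fold difference and a log2 fold change of 1.76 (SE 0.27, 95% interval 1.15 to 2.36, edgeR adjusted p = 0.00395, exact permutation p = 0.0286). Vegfa was the member with the smallest p and ranked 358th of the 17378 genes. It passed the test after omission of any one of the 8 libraries, at log2 fold changes between 1.64 and 1.91 and an edgeR adjusted p of at most 0.0197.

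Adm encodes adrenomedullin, a vasodilator peptide needed for embryonic vessels. Adm (chromosome 7, 110627661 to 110629820, plus strand) was at 0, 27.5, 0 and 18.4 in the WT replicates and at 173, 37.2, 69.6 and 114 in the DKO replicates, from 0, 32, 0, 21, 165, 32, 57 and 109 reads. All DKO libraries were above all WT libraries, but at few reads, and an observed 0 allows up to 3 reads. WT replicate 2 and DKO replicate 2 had 32 reads each, so that the separation of the groups rests on the scaling to library size. The means were 11.5 ± 13.8 in WT and 98.5 ± 59.0 in DKO (SD, n = 4). The log2 fold change was 3.08 with a wide 95% interval of 0.44 to 5.72, and the edgeR adjusted p of 0.0917 missed the threshold, while DESeq2 gave an adjusted p of 0.0326. Over the omissions of 1 library the log2 fold change ranged from 2.66 to 3.98, the highest without WT replicate 2, and the edgeR adjusted p from 0.0924 to 0.161. The exact permutation p was 0.0286.

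The members that supply and steer glucose did not pass the test. Slc2a1 encodes the glucose transporter GLUT1, which is also abundant in red cell precursors. Slc2a1 (chromosome 4, 119108711 to 119137983, plus strand) was at 5719, 5856, 6169 and 6982 in the WT replicates and at 6104, 6888, 4227 and 11474 in the DKO replicates. DKO replicate 4 was above and DKO replicate 3 below the whole WT range, and the other DKO libraries lay within it. The log2 fold change was 0.21 (95% interval -0.35 to 0.78, edgeR adjusted p = 0.581) and -0.10 without DKO replicate 4.

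Pdk1 encodes a kinase that blocks the entry of pyruvate into mitochondrial oxidation. Pdk1 (chromosome 2, 71873224 to 71903858, plus strand) was at 5680, 5553, 6345 and 6840 in the WT replicates and at 6457, 5586, 5597 and 9442 in the DKO replicates. All DKO libraries but replicate 4 lay within the WT range. Between genotypes the log2 fold change was 0.15, and its 95% interval of -0.23 to 0.52 was the narrowest of the members after that of Hif1a (edgeR adjusted p = 0.563). Without DKO replicate 4 it was -0.05.

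Ndrg1 responds to low oxygen and to other stresses and is used as a hypoxia marker. Ndrg1 (chromosome 15, 66929318 to 66969640, minus strand) was at 1922, 2005, 1875 and 3199.7 in the WT replicates and at 2321, 2211, 802 and 3721 in the DKO replicates. The means were nearly equal, but the DKO libraries spread over 4.64-fold, from below every WT library in replicate 3 to above every WT library in replicate 4. Ndrg1 had a log2 fold change of 0.01 with a 95% interval from -0.84 to 0.86 (edgeR adjusted p = 0.990), and it was -0.33 without DKO replicate 4 and 0.30 without DKO replicate 3. Exact permutation tests of Epas1, Egln3, Slc2a1, Pdk1 and Ndrg1 gave p from 0.657 (Pdk1) to 0.857 (Ndrg1). No adjustment was made for the 10 permutation tests.

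Per length, in TPM-like units (reads per kilobase of exon as a share of their sum in the library), the metabolic members were the most abundant in WT S0 cells. Slc2a1 was at 112.6 ± 10.3, Pdk1 at 50.1 ± 4.63 and Hif1a at 45.9 ± 4.87 (SD, n = 4). Egln3, Ndrg1, Egln1 and Ankrd37 followed at 22.9 ± 4.40, 21.8 ± 6.27, 15.2 ± 3.58 and 15.0 ± 1.53. Pdk1 and Hif1a lay within their spread of each other, as did neighbours in order among the last 4 genes named, while Slc2a1 was above Pdk1, and Hif1a above Egln3, by more than the spread. Vegfa, Epas1 and Adm were low, at 2.37 ± 0.61, 1.55 ± 0.62 and 0.46 ± 0.55, and neighbours among these also lay within their spread. In the DKO means, Ankrd37 at 57.3 ± 49.2 and Egln1 at 31.1 ± 11.2 stood level with or above Hif1a at 30.4 ± 5.51. By library, Ankrd37 was below Hif1a in DKO replicate 3 (15.9 against 26.3) and above it in replicates 1, 2 and 4. Egln1 was below Hif1a in DKO replicates 2 and 3 and above it in replicates 1 and 4.

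The DKO libraries differed from each other more than the WT libraries did. The SD on the log2 scale was larger in DKO than in WT for 8 of the 10 members, with medians of 0.68 and 0.31. The same held for 78.4% of the 13763 genes with a mean of at least 50 normalized counts, where the medians were 0.28 and 0.16. DKO replicate 4 was the highest of the 8 libraries for 6 members (Ankrd37, Egln1, Egln3, Ndrg1, Slc2a1 and Pdk1), against 13.4% of all genes tested. DKO replicate 3 was the lowest of the 4 DKO libraries for 6 members (Vegfa, Ankrd37, Egln1, Egln3, Ndrg1 and Slc2a1), against 25.3% of all genes. DKO replicate 3 was also the DKO library whose Xist and Ddx3y counts were near those of WT. Within it, Vegfa at 369, Adm at 69.6 and Ankrd37 at 433 were above the WT maxima of 208, 27.5 and 399.5, Hif1a at 2752 was below the WT minimum of 3671, and Egln1 at 1156 was within the WT range. With the Xist class as a term, log2 fold changes were 1.21 for Vegfa, 0.26 for Ankrd37, 0.43 for Egln1, -0.62 for Hif1a and 2.58 for Adm (edgeR adjusted p = 0.0717, 0.822, 0.452, 0.103 and 0.362). They were -1.49 for Ndrg1, -0.55 for Slc2a1, -0.54 for Egln3, -0.13 for Pdk1 and 0.68 for Epas1, with edgeR adjusted p from 0.0622 for Ndrg1 to 0.805 for Pdk1.

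**Figure D3:**
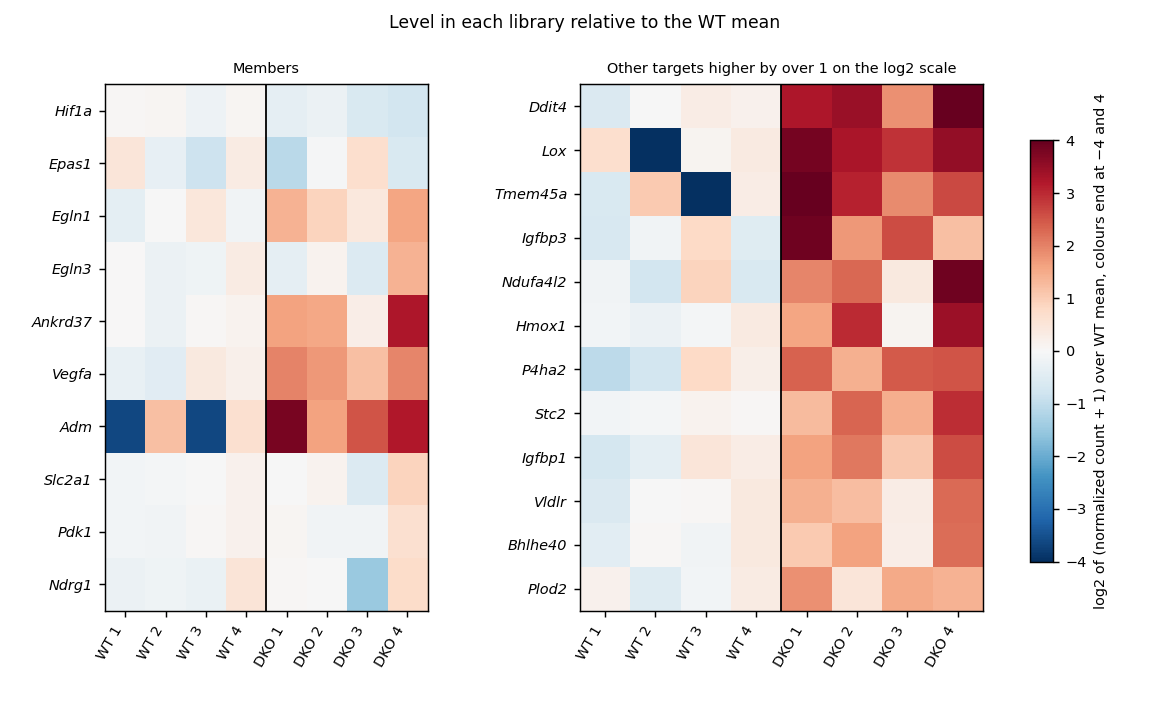
Level in each library relative to the WT mean (colour, log2 of normalized count + 1 over the WT mean + 1, with the colours saturated beyond the ends of the scale) for the 10 members at the left and, at the right, the 12 other HIF targets that rose by over 1 on the log2 scale; columns are the libraries and the black line parts WT from DKO. The DKO columns are unequal, with DKO 4 the darkest for Ankrd37 and for 8 of the 12 other targets. The genes of the right panel were selected for being higher in DKO, so that only the order of the libraries within a genotype is informative there.

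Of 13 other genes of the HIF machinery, for HIF subunits, hydroxylases, cofactors and the VHL ubiquitin ligase, 2 rose and 1 fell. These are 15.4% and 7.69% of the list, near the 10.7% and 10.8% of all genes, and the median log2 fold change was 0.01. The 3 genes encode parts of the ligase complex. Elob (elongin B) rose from 11932 ± 823 to 17522 ± 1108 (log2 fold change 0.55, edgeR adjusted p = 0.00315), and Eloc (elongin C) from 8847 ± 73.8 to 10763 ± 620 (0.28, edgeR adjusted p = 0.0189). Cul2, the cullin scaffold, fell from 4471 ± 530 to 3242 ± 164 (-0.46, edgeR adjusted p = 0.0116). Elongins B and C also serve RNA polymerase II elongation and other ligases. Without WT replicates 1, 2 or 4 the Eloc call was lost and 1 gene passed as higher, and without DKO replicate 1 there were 4 higher and 2 lower.

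The remaining 10 machinery genes did not pass. Log2 fold changes were -0.08 for Vhl, which recognizes the hydroxylated α subunit, 0.05 for the common partner Arnt and -0.26 for the third hydroxylase Egln2. They were -0.36 for Hif1an, which blocks coactivator binding, -0.38 for Hif3a, a further α subunit, and 0.26 for the ring protein Rbx1. The coactivators Ep300 and Crebbp were at -0.07 and 0.01, and Cited2, which competes for them, at 0.35. Arnt2, the partner typical of neurons, was at 15.6 ± 12.9 in WT and 135 ± 160 in DKO, with 374 in DKO replicate 1 and 41.8 to 63.9 in the other DKO libraries (log2 fold change 3.10, edgeR adjusted p = 0.0683, and 1.81 with 0.209 without DKO replicate 1 and 3.69 with 0.0955 without WT replicate 4).

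Of 49 other HIF targets that were tested, a list chosen with earlier results of these data known, 18 rose and 2 fell. These are 36.7% and 4.08% of these genes, beside 10.7% and 10.8% of all genes, and the median log2 fold change was 0.41. Without WT replicates 1, 2 or 4 the number that rose was 7, 10 and 11, and over all genes it was 858, 1011 and 948. The 2 that fell, named after their values were seen, were Car9, a surface carbonic anhydrase (log2 fold change -0.68, edgeR adjusted p = 0.0496), and Fos, an early response factor (-0.89, 0.0337). The number that fell was 0 without any one WT library and 1 without any one DKO library.

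Of the 18, 12 rose by more than 1 on the log2 scale. Ddit4, an inhibitor of mTORC1 that is induced by low oxygen and by other stresses, was at 141, 212, 262 and 239 in the WT replicates and at 2010.0, 2370.1, 767 and 5022 in the DKO replicates. All DKO libraries were far above WT, with replicate 4 highest and replicate 3 lowest, as for Ankrd37. Ddit4 rose by a log2 fold change of 3.57 (SE 0.51, edgeR adjusted p = 0.0031). On the same scale, the collagen-modifying enzymes Lox, P4ha2 and Plod2 rose by 3.45, 2.26 and 1.39, and the secreted binding proteins Igfbp3 and Igfbp1 by 2.74 and 1.96. Hmox1, which degrades heme, rose by 2.51 from 245 ± 46.8 to 1393 ± 1083, and its DKO replicate 3, at 265, lay within the WT range of 209 to 314. Ndufa4l2, a mitochondrial protein, rose by 2.65, the hormone Stc2 by 2.17, the transcriptional repressor Bhlhe40 by 1.46, the lipoprotein receptor Vldlr by 1.46 and the membrane protein Tmem45a by 3.39. In log2 fold change, Ndufa4l2 was at 1.76 without DKO replicate 4 (edgeR adjusted p = 0.0533), and Igfbp3 and Tmem45a were at 1.97 and 2.68 without DKO replicate 1 (edgeR adjusted p = 0.0127 and 0.0692). On that scale Tmem45a was at 4.08 without WT replicate 2 (edgeR adjusted p = 0.0518). DKO replicate 4 was the highest library for Ddit4, P4ha2, Bhlhe40, Hmox1, Igfbp1, Stc2, Vldlr and Ndufa4l2. DKO replicate 1 was the highest for Plod2, Lox, Igfbp3 and Tmem45a, and it also had the highest sum of the stromal markers described below. The calls of Ddit4, Igfbp1, P4ha2, Plod2 and Stc2 held without any one of the 8 libraries, and those of Bhlhe40, Hmox1, Igfbp3, Lox, Ndufa4l2, Tmem45a and Vldlr were lost without WT replicate 1 and, for each, without at least 1 other library. With the Xist class as a term, 2 of the 49 targets remained called, Ddit4 (log2 fold change 1.84, edgeR adjusted p = 0.0443) and P4ha2 (2.47, edgeR adjusted p = 0.0431), both higher, and the 2 that fell were no longer called.

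Of the 14 glycolytic enzyme genes on a separate list, 2 rose and 1 fell. These are 14.3% and 7.14% of the list, near the 10.7% and 10.8% of all genes, and the median log2 fold change was 0.13. Named after their values were seen, Hk2 rose (0.73, edgeR adjusted p = 0.0246), Tpi1 rose (0.32, 0.0323) and Hk1 fell (-0.56, 0.0131). Hk1 and Hk2 encode hexokinases, the first step of glucose use, and Hk1 is the form typical of red cells. The number that rose was 0 without WT replicate 1, 2 or 4 or DKO replicate 2, 1 without WT replicate 3 or DKO replicate 4, and 4 without DKO replicate 1. The difference between the lists in how many genes rose was not tested.

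**Figure D4:**
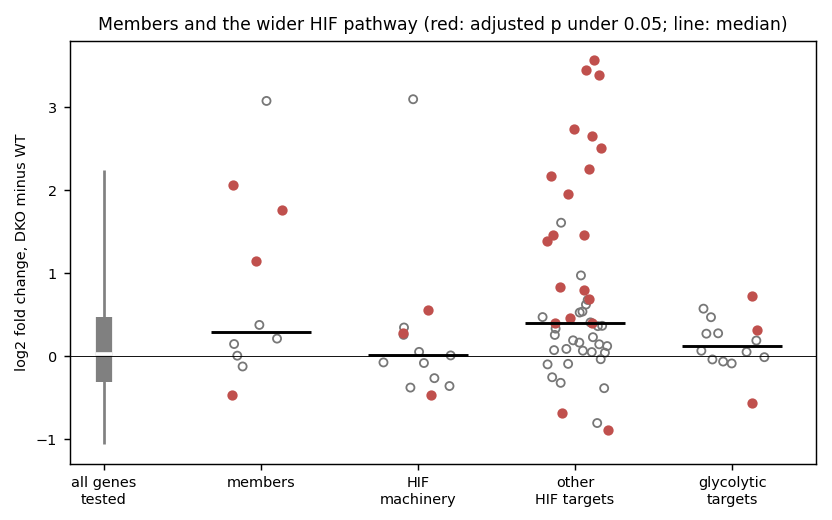
Log2 fold change (vertical axis, DKO minus WT) of the 10 members, 13 HIF machinery genes, 49 other HIF targets and 14 glycolytic targets, 1 point per gene, red for an adjusted p under 0.05, with the list median as a line; the grey bar at the left gives all genes tested (thick, middle 50%; thin, 5th to 95th percentile). The list medians are 0.30, 0.01, 0.41 and 0.13, and the red points of the members and of the other targets reach above 1 while those of the machinery and the glycolytic targets do not.

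S0 cells are defined by markers they lack, and the lineage antibodies named in the methods are directed at blood cells and include none to hepatoblast, stromal or endothelial markers. The summed normalized counts of 10 stromal markers ranged from 2171 to 6007 in WT and were 46879, 13357, 15496 and 22169 in the DKO replicates. All DKO libraries were thus above all WT libraries, 9 of the 10 markers rose with a list median of 2.67, and none was at 0 in any library. Replicate 1 had the highest sum. It was the highest of the 8 libraries for 2 of the 10 members (Vegfa and Adm) and 9 of the 49 other HIF targets tested. These 9 include Plod2, Lox, Igfbp3 and Tmem45a, while the other targets named above as rising by more than 1 were highest in replicate 4. Replicate 1 was highest for 0 of the 14 glycolytic targets, and for 24.2% of all genes tested. Whether stromal cells contributed to the values of these targets was not tested. Replicate 4, which was highest for the 6 members named above, had the second highest stromal sum.

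Hepatoblast markers such as Afp and Alb were abundant, summing to 706852 to 959308 in WT and to 516157, 813721, 214016 and 712403 in the DKO replicates. None of the 12 passed the test, the list median was -0.43, and DKO replicate 3 had the lowest sum. That library was the lowest of the 8 for 3 of the 10 members (Egln3, Ndrg1 and Slc2a1), against 14.3% of all genes tested. Endothelial markers summed to 14977 to 16499 in WT and 9555 to 16565 in DKO, with 2 of 12 lower and none higher. Macrophage markers summed to 4881 to 7388 in WT and 1376 to 4388 in DKO. Of 9 tested, 1 was lower and none was higher, and 6 of the 10 listed were at 0 in at least 1 DKO library. The 12 erythroid markers summed to 64033 to 103166 in WT and to 46154 to 118043 in DKO, with 2 higher and no lower call. Over all genes tested, 10.7% were called higher and 10.8% lower. In such bulk samples, fewer cells of a type and less RNA per cell cannot be told apart, and the part of the cell mixture in the results above was not tested.

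**Figure D5:**
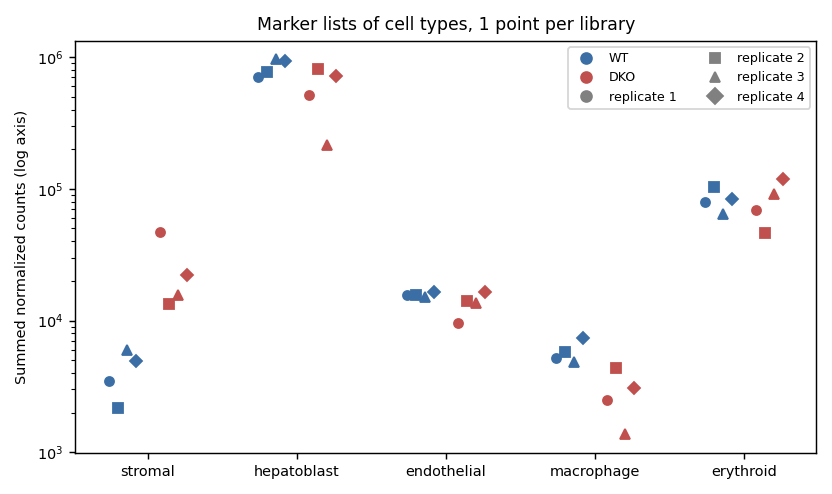
Summed normalized counts (vertical log axis) of the markers of 5 cell types in each of the 8 libraries, with the genotype as colour and the replicate number as marker shape. The stromal sums of DKO (13357 to 46879) all lie above those of WT (2171 to 6007), the macrophage sums of DKO (1376 to 4388) all lie below those of WT (4881 to 7388), and the other 3 lists overlap.

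Histone transcripts, most of which end without a poly(A) tail, and mitochondrial mRNAs also moved between genotypes. Of 62 histone genes, 61 had a log2 fold change above 0, with a median of 1.61, and 45 were called higher. Of 13 mitochondrial mRNAs, 11 had a log2 fold change above 0, with a median of 0.59, and 10 were called higher. Over all genes tested the median was 0.03 and 10.7% were called higher. Leaving out histone and non-coding genes changed no call among the members, and the log2 fold changes of Ankrd37, Vegfa, Egln1 and Hif1a were then 2.10, 1.80, 1.18 and -0.43.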

How the data were processed

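RNAseq counts of 4 WT and 4 DKO libraries were analysed, with groups and replicate numbers taken from the sample labels. The authors prepared polyA RNA by template switching, trimmed reads with fastp 0.21.0, mapped them to mm10 with HISAT2 2.2.1, removed alignments with a mapping quality under 20, and deposited unnormalized gene counts made with StringTie 1.3.3b and prepDE. Whether reads were counted by strand is not given in the sources used here. Of 52636 identifiers, 52489 matched a gene symbol in GENCODE M21 (GRCm38) with versions ignored, and 49121 matched with the version. The smallest chi-square per gene between libraries of 1 group was 18.8, above sampling noise.

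Counts were tested with edgeR 4.0.16 in R 4.3.3 (filterByExpr, TMM, robust quasi-likelihood test, Benjamini-Hochberg adjustment, no covariate), after the method was tested on simulated data. The simulation gave WT and DKO the same spread, so it could not show how the test performs with the larger DKO spread seen here. DESeq2 1.42.0 was an alternative. A fit with the Xist class of each library (over or under 1000 normalized counts) as a term was added after seeing the data. To normalize counts, each library was scaled to the mean effective library size. Intervals are 95% intervals from the edgeR standard error. Samples were also compared by exact two-sided permutation of log2 CPM over 70 arrangements. A pseudocount of 1 was used for log2 values of normalized counts. The members and all gene lists were chosen with earlier results of these data known. All members and all machinery genes were named, and of the other lists the genes past an adjusted p of 0.05 and a log2 fold change of 1 in either direction. Some further genes of these lists, Epo and Epor among them, were named outside this rule. Replicate numbers did not pair the libraries. Depth limits Adm and other genes with few reads.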

Additional observations from a re-analysis of the deposited data

Results flagged for a closer look

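Each of the 10 members, the 13 machinery genes and the 12 other targets that rose by over 1 on the log2 scale was examined for a library standing apart from the rest of its genotype by Dixon's test, which gave 6 such libraries in 70 groups of 4. Chance gives about 1 in 20 groups. Among the members, Hif1a had a low WT replicate 3, at 3671 normalized counts against 4335 to 4479 in the other WT libraries, and Ndrg1 a high WT replicate 4, at 3200 against 1875 to 2005. In the machinery, Hif1an, the asparagine hydroxylase, was at 1918 in DKO replicate 1 and at 982 to 1004 in the other DKO libraries, and Vhl was at 1377 in WT replicate 4 and at 944 to 991 in the other WT libraries. Among the other targets, Lox was at 0 in WT replicate 2 and at 45.2 to 67.0 in the rest of WT, and P4ha2 was at 637 in DKO replicate 2 and at 1243 to 1373 in the rest of DKO. No library was the one standing apart in more than 2 of these 6 cases. Without WT replicate 3 the log2 fold change of Hif1a was -0.54, and without WT replicate 4 that of Vhl was 0.05 in place of -0.08.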

How the results depend on the processing

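Vegfa passed the test under every alternative other than the term for Xist class. The count of members that rose (3) was 1 to 3 over the omissions of 1 library and that of members that fell (1) was 0 to 1. Over all genes, 858 to 1915 rose and 898 to 2012 fell over these omissions. For the machinery the ranges were 1 to 4 higher and 1 to 2 lower, for the other targets 7 to 20 higher and 0 to 1 lower, and for the glycolytic targets 0 to 4 higher. With upper-quartile scaling, 0 members fell, 1242 genes fell in all, 4 machinery genes rose, 1 other target fell and 4 glycolytic genes rose. Without a low-count filter, 1 machinery gene and 1 glycolytic gene rose and 1 other target fell, and 1 other target fell also when 10 counts were required in every library, a filter that Adm did not pass, and among protein-coding genes without histones. DESeq2 gave 2 machinery genes that fell. A call that also needed a log2 fold change beyond 1 left 1076 genes higher and 423 lower, 0 members lower, and 0 machinery genes and 0 glycolytic genes in either direction, and 0 other targets lower. Of the values of single genes under the alternatives, 450 kept their direction and side of the threshold, 64 no longer passed, 12 passed newly and 29 changed sign.

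With a replicate block, 1 member rose, as did 1026 genes in all, 1 machinery gene and 1 glycolytic gene, and 1083 genes fell in all but 0 other targets did. Under the block the edgeR adjusted p was 0.0560 for Ankrd37, at 1.68 on the log2 scale, and 0.0646 for Egln1, at 1.12. Same-numbered libraries share only a number: their deviations from the group means correlated at -0.10, 0.05, -0.03 and -0.01, and a library did not correlate best with its own number in any of the 4 cases.

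With the Xist class as a term, an alternative chosen after seeing the data, 0 members passed in either direction, 476 genes rose and 618 fell in all, 2 machinery genes rose (Elob and Cited2) and 0 fell, 2 other targets rose and 0 fell, and 0 glycolytic genes passed in either direction. Under this term the log2 fold changes that turned sign were -0.0266 for Arnt, -0.31 for Crebbp, -0.54 for Egln3, 0.68 for Epas1, -1.49 for Ndrg1, -0.13 for Pdk1 and -0.55 for Slc2a1.

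Over the omissions of 1 library the log2 fold changes ranged from -0.21 to 0.59 for Egln3, -0.10 to 0.40 for Slc2a1, -0.0501 to 0.23 for Pdk1, -0.33 to 0.30 for Ndrg1, -0.52 to 0.10 for Epas1, -0.0460 to 0.14 for Arnt, -0.14 to 0.11 for Crebbp, -0.13 to 0.00352 for Ep300 and -0.15 to 0.0540 for Vhl. With upper-quartile scaling Ep300 was at 0.0394 and Vhl at 0.0335, without a filter Crebbp was at -0.0157 and Ndrg1 at -0.0155, and under the replicate block they were at -0.00827 and -0.13. The cause of these changes was not tested.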

Other observations

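That DKO replicate 4 was often the highest library recurred outside the 10 members. DKO replicate 4 was the highest of the 8 libraries for 31 of the 49 other HIF targets tested (63.3%) and for 12 of the 14 glycolytic targets (85.7%), against 13.4% of all genes tested. The lowest DKO library recurred only in part. Replicate 3 was lowest of DKO for 22 of the 49 other targets (44.9%) and 4 of the 14 glycolytic targets (28.6%), against 25.3% of all genes. Replicate 1 was lowest of DKO for 10 of the glycolytic targets (71.4%), against 29.8% of all genes. Bnip3, a mitophagy receptor, and Slc2a3, the glucose transporter GLUT3, were among the targets highest in DKO replicate 4, without passing the test between genotypes. These genes, Slc16a3 and Aldoa were named after their values were seen. Bnip3 was at 4605, 5053, 5429 and 7630 normalized counts in the WT replicates and at 9900, 8391, 5549 and 20830 in the DKO replicates. All but DKO replicate 3 lay above the WT range (log2 fold change 0.98, edgeR adjusted p = 0.0794). Slc2a3 was at 12438 in DKO replicate 4, at 3362 to 5186 in the other DKO libraries and at 3309.8 to 5015 in WT. The lactate exporter Slc16a3 was at 22434 in DKO replicate 4 and at 10665 to 13736 in the other DKO libraries, and the aldolase Aldoa at 157231 and at 85646 to 108937.

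Epo, the erythropoietin gene, was low throughout, at 49.2 to 106 in WT and at 8.55 to 66.3 in DKO (log2 fold change -0.80, edgeR adjusted p = 0.358). Its receptor Epor, a marker of red cell precursors, rose from 2419 ± 144 to 3348 ± 395 (SD, n = 4, log2 fold change 0.47, edgeR adjusted p = 0.0123). All DKO libraries of Epor, at 2948 to 3753, were above all WT libraries, at 2235 to 2587, as for 13.5% of all genes tested.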
